A study of Arabidopsis thaliana with 18 samples.

Results

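The 8 loci described here encode the β-glucosidase PYK10 (AT3G09260, also BGLU23), its paralogs BGLU21 (AT1G66270) and BGLU22 (AT1G66280), the ER body factors NAI1 (AT2G22770) and NAI2 (AT3G15950), and the jacalin-related lectins JAL30 (AT3G16420, PBP1), JAL33 (AT3G16450) and JAL34 (AT3G16460). They are 8 of the 33602 Arabidopsis thaliana loci counted, and all 8 passed the filter on low counts. They were chosen by name, with their levels in these libraries already in view, so their levels and differences in all comparisons below are given as a description, without p-values. RNA came from the tip section of primary roots of 7-day-old seedlings, all in the Col-0 background, as 2 libraries for each of 9 groups. Col-0 wild type received 100 nM brassinolide (BL, a brassinosteroid), 5 µM indole-3-acetic acid (IAA, an auxin), or BL and IAA together, and each of these groups was set against Col-0 given a mock solution, all for 4 h. The single mutant bri1-116 lacks a working form of the brassinosteroid receptor BRI1. The bri1-116;bzr1-1D double mutant also carries a gain-of-function form of the transcription factor BZR1. Both mutants were untreated and share the 101 bp reads of the Col-0 groups. A set sequenced at 36 bp held dwf4, in which an enzyme of brassinosteroid biosynthesis is mutated, given 100 nM BL for 4 h, untreated dwf4, and untreated Col-0 wild type (WT below). The labels name no dwf4 allele and do not say how many plants made up a library, nor that the 2 libraries of a group were grown apart, so the spread that p-values measure may be technical.

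ER bodies are spindle-shaped compartments that bud from the endoplasmic reticulum (ER) in plants of the mustard order, and in roots of Arabidopsis PYK10 is their main content. NAI1 is a basic helix-loop-helix transcription factor, and NAI2 an ER body protein, without either of which root ER bodies do not form properly. When a cell breaks, PYK10 meets its glucoside substrates, among them indole glucosinolates and coumarin glucosides, and gathers into large complexes with the jacalin-related lectins.

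PYK10, BGLU21 and BGLU22 share most of their coding sequence, and proteins of this kind stay in the ER through a 4-residue signal at their end. The last 60 coding bases, from the RefSeq annotation of TAIR10.1, are shown to let the paralogs be compared where that signal lies; capitals mark the last 4 sense codons, before the stop codon.
PYK10: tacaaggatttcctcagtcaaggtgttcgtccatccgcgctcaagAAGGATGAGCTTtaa
BGLU21: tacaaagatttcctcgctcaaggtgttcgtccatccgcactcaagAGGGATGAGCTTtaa
BGLU22: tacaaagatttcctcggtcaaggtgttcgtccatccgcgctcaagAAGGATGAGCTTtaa
The capitals encode KDEL in PYK10 and BGLU22 and RDEL in BGLU21. Counted from 1 at the first base shown, BGLU22 differs from PYK10 by G6A and A16G, and BGLU21 by G6A, A16G, G17C, G39A and A47G. Over the whole coding sequence of 1575 bases each, BGLU21 and BGLU22 were identical at 93.3% of aligned bases, PYK10 and BGLU21 at 84% and PYK10 and BGLU22 at 83.7%. The longest run without a difference was 80 bases between BGLU21 and BGLU22, 42 between PYK10 and BGLU21 and 44 between PYK10 and BGLU22. BGLU21 and BGLU22 are adjacent on chromosome 1, at chr1:24699868-24703166 and chr1:24706512-24709996 on the minus strand (TAIR10.1), and PYK10 is at chr3:2840477-2843781 on the minus strand.

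The 250 bases before the annotated start are printed for NAI1, NAI2 and PYK10, the regulator, the formation factor and the enzyme, with capitals on each E-box (CANNTG, the core that basic helix-loop-helix factors bind).
NAI1 chr2:9684312-9684561, plus strand: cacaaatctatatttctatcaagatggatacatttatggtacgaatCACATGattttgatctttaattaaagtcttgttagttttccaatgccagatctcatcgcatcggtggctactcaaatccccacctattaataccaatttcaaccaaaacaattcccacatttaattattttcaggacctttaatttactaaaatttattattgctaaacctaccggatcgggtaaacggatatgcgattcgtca
NAI2 chr3:5402654-5402903, minus strand: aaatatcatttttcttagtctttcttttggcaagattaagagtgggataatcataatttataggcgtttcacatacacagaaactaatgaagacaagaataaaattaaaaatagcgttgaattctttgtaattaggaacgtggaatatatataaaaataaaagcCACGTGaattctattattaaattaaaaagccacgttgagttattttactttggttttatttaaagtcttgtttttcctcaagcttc
PYK10 chr3:2843782-2844031, minus strand: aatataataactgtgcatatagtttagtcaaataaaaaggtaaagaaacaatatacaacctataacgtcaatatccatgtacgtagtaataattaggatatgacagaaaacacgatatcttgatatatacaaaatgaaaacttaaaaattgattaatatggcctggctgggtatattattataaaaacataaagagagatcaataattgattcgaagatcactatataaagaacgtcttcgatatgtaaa
An E-box was present in 3 of the 8 windows (NAI1, NAI2 and JAL33), against 55.3% of the same 250-base windows of 27443 genes, and none lay in the windows of PYK10, BGLU21, BGLU22, JAL30 and JAL34. The E-box of NAI2, 86 bases before the start, is a G-box (CACGTG), a form that BZR1 can also bind; 6.49% of all windows hold one and 1 of the 8 does. Every G-box is also an E-box. CGTGTG or CGTGCG, the brassinosteroid response element bound by BZR1, was in 6.71% of all windows and TGTCTC, bound by auxin response factors, in 10.9%, and in none of the 8. Both strands were searched. A match is a description of letters, not a site, and the lack of one says only that these letters are not in this window.

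The libraries of 101 bp held 11225390 to 36431707 counts in genes and those of 36 bp 11764200 to 15647439, and 3 counts correspond to 0.0837 to 0.270 CPM (counts relative to library size, scaled by TMM factors within each read length). All 13 markers of 8 root cell types were detected in every library. The summed level of 4 leaf markers was 62.6 to 72.1 CPM in bri1-116;bzr1-1D and 21.6 to 27.1 CPM in bri1-116, against 10.2 to 13.6 CPM in mock-treated Col-0. Among them LHCB1.1 was at 0 to 0.560 CPM in all 18 libraries, and in 5 libraries RBCS3B had no count. BRI1 transcript was at 142 and 135 CPM in bri1-116, against 114 and 129 CPM in mock, and DWF4 transcript at 47.6 and 48.5 CPM in dwf4, against 49.7 and 51.8 CPM in WT, so gene totals do not check these mutant labels. With bulk tissue, fewer cells of a type and less RNA per cell cannot be told apart.

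PYK10 transcript was among the 2 most abundant of all loci in every library, and made up 0.593% to 0.969% of the counts assigned to genes. The 8 loci together made up 0.875% to 1.88%. Divided by exon length, PYK10 had 3228 to 4636 CPM per kb over the 12 libraries of 101 bp, a range of 1.44-fold, while BGLU21 had 98.2 to 915 CPM per kb, a range of 9.32-fold, and BGLU22 75.2 to 647 CPM per kb, a range of 8.60-fold. On this scale JAL30 came next to PYK10 by group mean, with 593 to 1759 CPM per kb, while JAL34 had 230 to 836, NAI2 239 to 585 and JAL33 70.0 to 283 CPM per kb. In bri1-116 the mean of BGLU21 was above that of JAL34, and in mock it was below. NAI1, the transcription factor, was lowest at 27.5 to 68.2 CPM per kb. At 36 bp the order of the extremes was the same, with PYK10 at 3391 to 5442 and NAI1 at 34.5 to 81.5 CPM per kb. CPM of the 2 read lengths are scaled apart and are not compared.

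**Figure D1:**
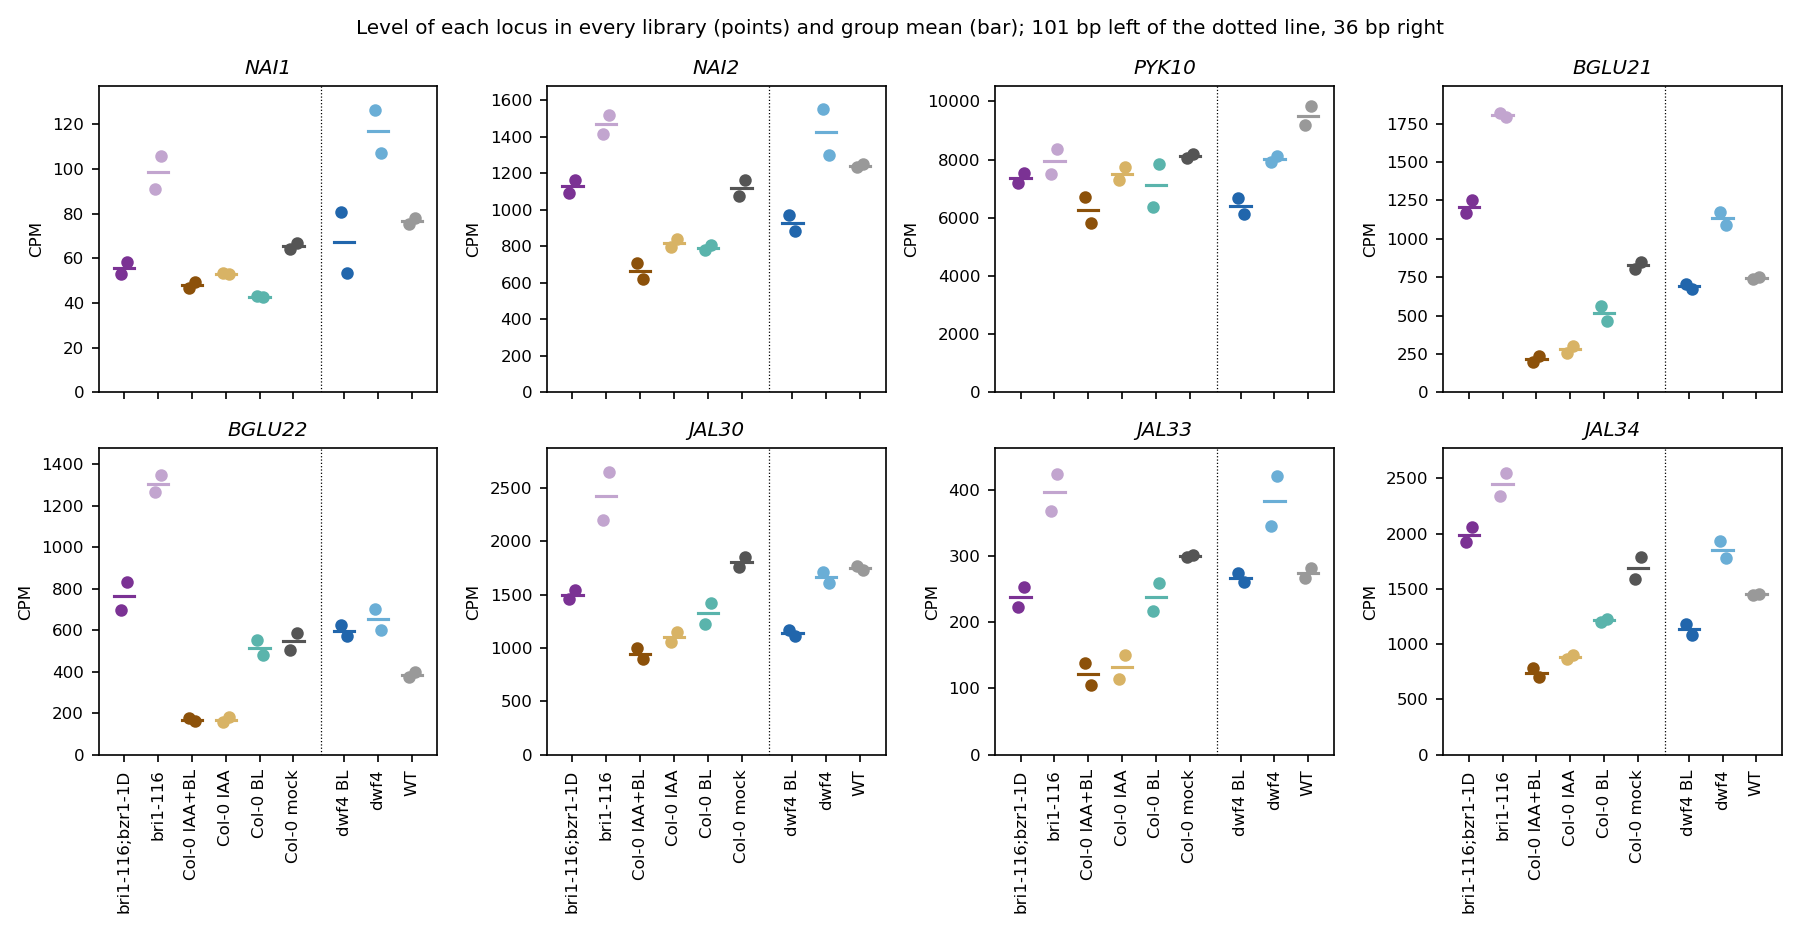
CPM (y axis, from 0) of the 8 loci in each library (points, 2 per group) with the group mean (bar); the 6 groups of 101 bp are left of the dotted line and the 3 of 36 bp right of it. The bri1-116 group mean is the highest of 101 bp in every panel but that of PYK10, and BGLU21 and BGLU22 are lowest in the 4 libraries with IAA.

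Reads of the paralogs can be hard to tell apart, which touches the values of BGLU21, BGLU22 and JAL34 at both read lengths and those of PYK10 and JAL30 at 36 bp. Of all 36-base stretches of the BGLU21 transcript, 51.7% matched another gene's transcript with at most 2 mismatches, as did 48.9% of BGLU22, 23% of PYK10, 22.9% of JAL34, 22.4% of JAL30, 9.79% of JAL33, 1.68% of NAI2 and 0% of NAI1. At 101 bases the shares were 7.94% for BGLU21, 7.57% for BGLU22, 20.5% for JAL34, 2.52% for JAL30, 0.528% for PYK10 and 0% for the others. The partner of BGLU21 was mainly BGLU22, that of JAL30 was JAL31, and JAL34 overlaps its neighbour AT3G16470 (JAL35) in the annotation. Reads with more than 1 alignment, and reads ambiguous between genes, were counted apart from the loci. Those with more than 1 alignment were 3.05% to 4.45% of the total at 101 bp and 8.18% to 9.35% at 36 bp. How reads that match a paralog with mismatches were placed, and whether strand was used, is not given in the sources used here.

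NAI1, the transcription factor, was lower with each hormone treatment. It had 43.2 and 42.6 CPM with BL, 53.4 and 52.8 CPM with IAA and 46.5 and 49.2 CPM with both, against 64.3 and 67.0 CPM in mock. No library of the 3 treated groups overlapped the mock libraries, and the BL group was the lowest. The log2 fold change was -0.61 (SE 0.075) with BL, -0.31 (SE 0.070) with IAA and -0.46 (SE 0.073) with both. In IAA-treated roots the addition of BL gave a log2 fold change of -0.15 (SE 0.074) relative to IAA alone, so the BL difference was smaller with IAA present, and the interaction was 0.46 (SE 0.11). This interaction was called at an adjusted p of 0.05 with all libraries and in none of the 8 fits that left out 1 of them. Among the mutants, NAI1 had 52.8 and 58.3 CPM in bri1-116;bzr1-1D and 91.2 and 106 CPM in bri1-116, against 64.3 and 67.0 CPM in mock. The bri1-116 libraries were above all others of 101 bp, and those of the double mutant were below mock. Relative to mock the log2 fold change was 0.59 (SE 0.067) for bri1-116 and -0.24 (SE 0.075) for the double mutant, which was itself at -0.83 (SE 0.073) against bri1-116. At 36 bp NAI1 had 80.7 and 53.5 CPM in BL-treated dwf4 and 126 and 107 CPM in untreated dwf4, against 75.3 and 78.2 CPM in WT. Untreated dwf4 was above both other groups, and the BL-treated libraries lay on either side of WT. The log2 fold change was -0.80 (SE 0.16) for BL in dwf4 and 0.60 (SE 0.16) for dwf4 against WT. Without the second library of BL-treated dwf4 the contrast of BL-treated dwf4 with WT was 0.07, without the first it was -0.52 and called, and with both it was -0.20.

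NAI2, which ER bodies need to form, had the same order of bri1-116, mock and BL groups as NAI1. Its level was 782 and 805 CPM with BL, 796 and 839 CPM with IAA and 711 and 623 CPM with both, against 1076 and 1161 CPM in mock. Every treated library was below both mock libraries, and those with both hormones were lowest. The log2 fold change was -0.50 (SE 0.066) with BL, -0.45 (SE 0.066) with IAA, -0.75 (SE 0.066) with both and -0.29 (SE 0.066) for both against IAA alone. In the mutants it was 1092 and 1165 CPM in bri1-116;bzr1-1D and 1413 and 1522 CPM in bri1-116, against 1076 and 1161 CPM in mock. The double mutant overlapped mock, with a log2 fold change of 0.01 (SE 0.066), whereas bri1-116 was above both, at 0.39 (SE 0.066) against mock. At 36 bp NAI2 was at 973 and 883 CPM in BL-treated dwf4 and 1552 and 1298 CPM in dwf4, against 1233 and 1248 CPM in WT. The groups did not overlap, but the dwf4 libraries differed from each other by more than the lower of them did from WT, and dwf4 against WT, at 0.20 (SE 0.085), was not called. BL in dwf4 gave -0.62 (SE 0.086).

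PYK10 differed least between the groups of 101 bp. Its level was 6363 and 7860.2 CPM with BL, 7282 and 7747 CPM with IAA and 6729.9 and 5829.9 CPM with both, against 8067 and 8179 CPM in mock. All 6 hormone-treated libraries were below the mock libraries, with BL libraries that differed from each other by more than the higher of them did from mock. In log2 fold change it was at -0.19 (SE 0.085) with BL and -0.11 (SE 0.085) with IAA, neither called (without the second BL library BL gave -0.35, which was called), and -0.37 (SE 0.085) with both, which was called. PYK10 had 7203 and 7549 CPM in bri1-116;bzr1-1D and 7514 and 8373 CPM in bri1-116, against 8067 and 8179 CPM in mock. The bri1-116 libraries lay on either side of the mock libraries, with a log2 fold change of -0.03 (SE 0.085); the double mutant was at -0.14 (SE 0.085) against mock. Every neighbouring pair in the order of the 6 groups, which ran from mock through bri1-116, IAA, the double mutant and BL to IAA with BL, overlapped. At 36 bp the groups did not overlap: PYK10 had 6683 and 6124 CPM in BL-treated dwf4 and 7903 and 8110.5 CPM in dwf4, against 9203 and 9828 CPM in WT. WT was the highest group, unlike for the other loci except JAL30, and the log2 fold change was -0.25 (SE 0.064) for dwf4 against WT and -0.32 (SE 0.064) for BL in dwf4. The dwf4 difference of PYK10 was not called with library totals as the only scaling, with a replicate block, in the fit of all 18 libraries, or without any 1 of the 4 libraries compared.

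BGLU21, a root β-glucosidase that can cleave the coumarin glucoside scopolin, had among the widest differences. It had 563 and 466 CPM with BL, 259 and 301 CPM with IAA and 195 and 235 CPM with both, against 803 and 850.5 CPM in mock. The 4 groups did not overlap, and stood in the order mock, BL, IAA and both hormones from high to low. Against mock BL gave a log2 fold change of -0.68 (SE 0.092), IAA -1.56 (SE 0.093) and both hormones -1.94 (SE 0.094). Relative to IAA alone, both hormones gave -0.38 (SE 0.094), which was not called when the counts of BGLU21 and BGLU22 were summed. In the mutants BGLU21 was at 1165 and 1251 CPM in bri1-116;bzr1-1D and 1819 and 1791 CPM in bri1-116, against 803 and 850.5 CPM in mock. Both mutant groups were above mock without overlap, with log2 fold changes of 1.13 (SE 0.091) for bri1-116 and 0.55 (SE 0.092) for the double mutant, and the double mutant was at -0.58 (SE 0.092) against bri1-116. At 36 bp its level was 708 and 674 CPM in BL-treated dwf4 and 1176 and 1091 CPM in dwf4, against 737 and 748 CPM in WT. The dwf4 libraries were highest, at a log2 fold change of 0.61 (SE 0.057) against WT, and BL gave -0.71 (SE 0.057) in dwf4. BL-treated dwf4 against WT was -0.10 (SE 0.057) for BGLU21 and 0.19 with the counts of BGLU22 added, and neither was called.

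BGLU22, its neighbour and nearest paralog, was lower with IAA and higher in bri1-116, while its BL libraries overlapped mock. It was at 552 and 478 CPM with BL, 156 and 182 CPM with IAA and 178 and 161 CPM with both, against 507 and 586 CPM in mock. All 4 libraries with IAA were below every mock and BL library. It was at -0.08 (SE 0.096) in log2 fold change with BL, -1.69 (SE 0.097) with IAA and -1.69 (SE 0.097) with both, and 0.01 (SE 0.099) for both against IAA alone. Its level was 695 and 834 CPM in bri1-116;bzr1-1D and 1263 and 1346 CPM in bri1-116, against 507 and 586 CPM in mock. The 3 groups did not overlap, and the difference of bri1-116 from mock, 1.26 (SE 0.095), was the largest rise among the 8 loci in any comparison; the double mutant was at -0.77 (SE 0.095) against bri1-116. At 36 bp BGLU22 had 623 and 569.6 CPM in BL-treated dwf4 and 702 and 603 CPM in dwf4, against 374 and 397 CPM in WT. The 2 dwf4 groups overlapped each other and both were above WT, with 0.76 (SE 0.081) for dwf4 against WT, -0.13 (SE 0.080) for BL in dwf4 and 0.63 (SE 0.081) for BL-treated dwf4 against WT. It was the only one of the 8 loci called higher in BL-treated dwf4 than in WT, and with the counts of BGLU21 added this difference was 0.19 and not called. Whether BGLU21 and BGLU22 differed in their response was not tested. A sum of the counts of both genes was at -0.41 with BL, -1.61 with IAA and 1.18 in bri1-116, all called, each on the log2 scale against mock.

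The lectins JAL30, JAL33 and JAL34 lie in a cluster on chromosome 3 (chr3:5579290-5581032, chr3:5588292-5590085 and chr3:5592491-5595912, plus strand, TAIR10.1) and belong to the complexes that PYK10 forms. JAL30 (PBP1, PYK10-binding protein) had 1224 and 1426 CPM with BL, 1054 and 1151 CPM with IAA and 999 and 892 CPM with both, against 1756 and 1854 CPM in mock. The groups did not overlap, and the log2 fold change was -0.45 (SE 0.086) with BL, -0.71 (SE 0.086) with IAA and -0.93 (SE 0.086) with both. In the mutants it was 1455 and 1539.6 CPM in bri1-116;bzr1-1D and 2201 and 2646 CPM in bri1-116, against 1756 and 1854 CPM in mock. The double mutant was below mock, at -0.27 (SE 0.086), and bri1-116 above it, at 0.43 (SE 0.086). JAL30 had 1171 and 1112 CPM in BL-treated dwf4 and 1714 and 1611 CPM in dwf4, against 1764 and 1729 CPM in WT. Untreated dwf4 was just below WT, a difference of -0.07 (SE 0.056) that was not called, and BL-treated dwf4 was clearly below both, at -0.54 (SE 0.056) against dwf4.

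JAL33, the lowest of these lectins per kb of exon, had 216 and 259 CPM with BL, 114 and 151 CPM with IAA and 139 and 105 CPM with both, against 299 and 301 CPM in mock. BL libraries were below mock without being called, at -0.34 (SE 0.13), while IAA gave -1.19 (SE 0.13) and both hormones -1.29 (SE 0.13). The IAA and the combined group overlapped. Its level was 222 and 253 CPM in bri1-116;bzr1-1D and 368 and 424 CPM in bri1-116, against 299 and 301 CPM in mock. All bri1-116 libraries were above mock, at 0.40 (SE 0.13), a call lost with DESeq2 and without either mock or the second bri1-116 library, and those of the double mutant below, at -0.34 (SE 0.13), which was not called. At 36 bp JAL33 was at 274 and 260.3 CPM in BL-treated dwf4 and 345 and 420.5 CPM in dwf4, against 267 and 282 CPM in WT. BL-treated dwf4 overlapped WT, and untreated dwf4 was above both, at 0.48 (SE 0.089) against WT.

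JAL34 had 1202 and 1226 CPM with BL, 867 and 902 CPM with IAA and 785 and 701 CPM with both, against 1586 and 1785 CPM in mock. Its 4 groups did not overlap and stood in the same order as those of BGLU21, at -0.47 (SE 0.068), -0.93 (SE 0.068) and -1.18 (SE 0.068) in log2 fold change for BL, IAA and both. It had 1920.4 and 2055 CPM in bri1-116;bzr1-1D and 2342 and 2546 CPM in bri1-116, against 1586 and 1785 CPM in mock. Both mutant groups were above mock, at 0.24 (SE 0.068) for the double mutant and 0.54 (SE 0.067) for bri1-116. Its level was 1184 and 1081 CPM in BL-treated dwf4 and 1929 and 1778 CPM in dwf4, against 1449 and 1458 CPM in WT. WT stood between the other groups, with 0.35 (SE 0.064) for dwf4 against WT and -0.71 (SE 0.064) for BL in dwf4. Summing the counts of JAL34 and JAL35 left each of these differences on the same side of 0.

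**Figure D2:**
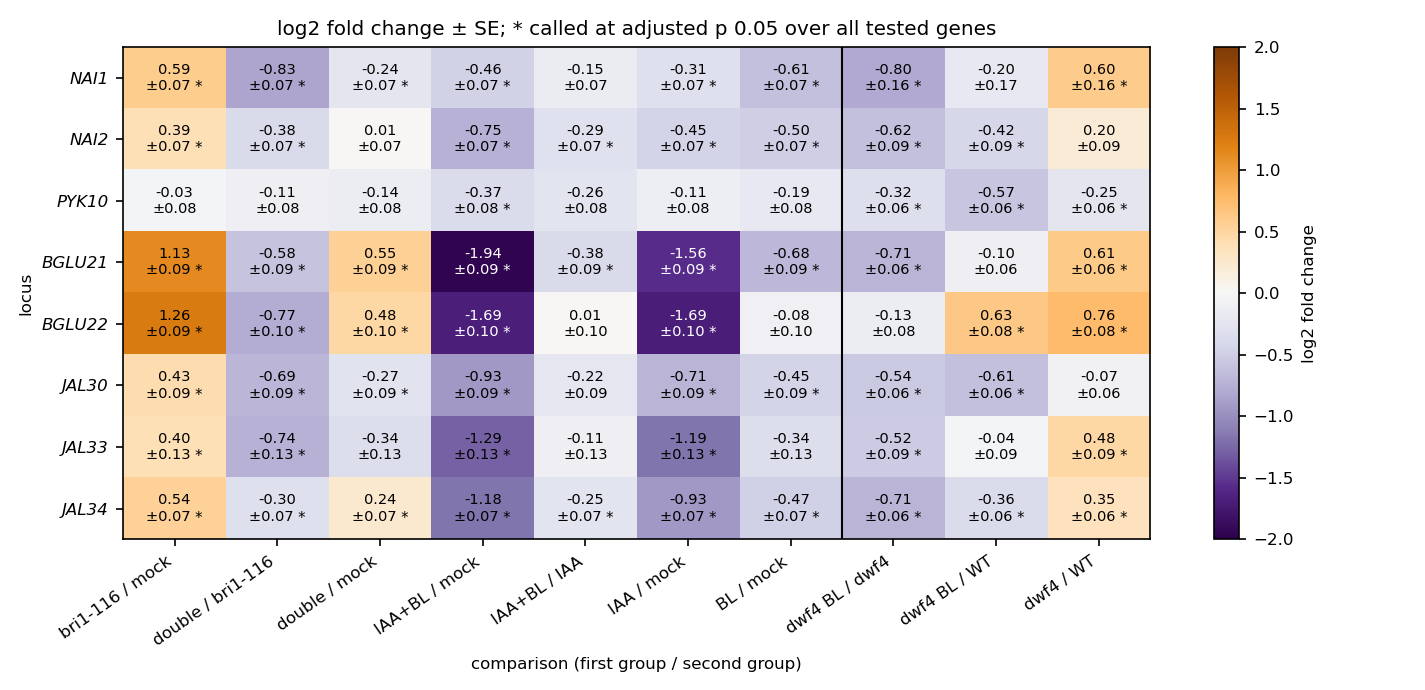
log2 fold change with its SE for each of the 8 loci (rows) in 10 comparisons (columns, first group over second; "double" is bri1-116;bzr1-1D), orange for higher and purple for lower; an asterisk marks a call at an adjusted p of 0.05 over all tested genes. BGLU21 and BGLU22 have the deepest colours, from 1.26 in bri1-116 to -1.94 with both hormones, and the PYK10 row is the palest at 101 bp.

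Counted per comparison, with a call meaning an adjusted p of 0.05 in edgeR's quasi-likelihood test over all tested genes, the hormone treatments had the 8 loci on the lower side. With BL, 5 of the 8 were called lower and 0 higher (NAI1, NAI2, BGLU21, JAL30 and JAL34), where 6.59% of the 20644 genes tested were called lower and 6.37% higher; the median log2 fold change of the 8 was -0.46. Over all genes tested this median was -0.0042, and it was within 0.02 of 0 in each comparison here. With IAA, 7 were called lower and 0 higher, all but PYK10, where 29.3% of genes were called lower and 29.9% higher, and the median of the 8 was -0.82. With both hormones, 8 were called lower, where 26.1% of genes were lower and 26% higher, and the median of the 8 was -1.06. Between both hormones and IAA alone, 3 were called lower (NAI2, BGLU21 and JAL34), where 5.13% of genes were lower and 5.4% higher; the count was 0 without the second IAA library and 1 without the second library of both hormones. BGLU21 was also not called without the first library of both hormones and JAL34 without the first IAA library, while PYK10 was called without the first library of both hormones, at -0.35. The interaction called 1 of the 8 higher, NAI1, where 0.606% of genes were called higher and 0.838% lower. These comparisons share the mock or the IAA libraries, so their counts are not independent. The members were selected on these data, and nothing is read from their counts against those shares.

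In bri1-116 against mock, 7 of the 8 were called higher and 0 lower, where 16.7% of genes were called higher and 19.4% lower; the median of the 8 was 0.48. In the double mutant against bri1-116, 7 were called lower, where 19.1% of genes were lower and 21.2% higher, and the median of the 8 was -0.64. PYK10 was the exception in both. Against mock, the double mutant had 3 called higher (BGLU21, BGLU22 and JAL34) and 2 lower (NAI1 and JAL30), where 8.03% of genes were higher and 8.17% lower. Without 1 library this count of 5 was 1 without the first mock library, 3 without the second, and 2 without either library of the double mutant. The mutants were untreated and the Col-0 libraries mock-treated, so genotype and handling cannot be told apart in the contrasts with mock. Markers moved with these groups. The endodermis pair SCR and CASP1 summed to 209 to 215 CPM in bri1-116, against 317 to 339 CPM in mock, with the 2 in opposite directions: CASP1 had 121 and 124 CPM in bri1-116, against 249 and 269 CPM in mock, and SCR 87.2 and 91.1 CPM in bri1-116, against 67.6 and 70.0 CPM in mock. With IAA the root hair pair COBL9 and EXPA7 summed to 55.4 to 56.8 CPM and with both hormones to 29.3 to 31.9 CPM, against 102 to 109 CPM in mock, and the stele pair to 89.9 to 90.9 CPM with IAA, against 141 to 151 CPM in mock. Not all markers fell with IAA. Against mock, the cortex marker was called higher at 0.453 on the log2 scale, and the quiescent centre marker at 1.35. The root cap pair split, with 1 called higher at 0.66 and 1 lower at -0.32. The non-hair epidermis marker was called lower, at -0.75. With both hormones the cortex marker was called lower, at -1.03, and the quiescent centre marker higher, at 1.62. The part of any of these markers in the results was not tested.

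In dwf4 against WT, 5 of the 8 were called higher (NAI1, BGLU21, BGLU22, JAL33 and JAL34) and 1 lower (PYK10), where 4.79% of the 19558 genes tested were called higher and 7.93% lower; the median of the 8 was 0.42. In counts simulated for this contrast more calls were false than the threshold allows, in each of 5 draws. When either WT library was left out, only BGLU21 and BGLU22 of the 8 stayed called, and fewer genes were called over all genes too. With the first and then the second WT library left out, NAI1 was at 0.58 and 0.63 and JAL33 at 0.44 and 0.52. In the same fits JAL34 was at 0.35 and 0.36 and PYK10 at -0.30 and -0.20. Without the first dwf4 library NAI1 and PYK10 were not called, and without the second NAI2 was called, at 0.32, and PYK10 was not. BL in dwf4 gave 7 called lower, all but BGLU22, where 5.45% of genes were lower and 7.86% higher, and the median of the 8 was -0.58. Without the second library of BL-treated dwf4, PYK10 and JAL33 were not called in it. BL-treated dwf4 against WT had 1 called higher (BGLU22) and 4 lower (PYK10, NAI2, JAL30 and JAL34), where 9.63% of genes were higher and 9.16% lower. When either WT library was left out, NAI2 and JAL34 were not called, and fewer genes were called over all genes too. In these fits NAI2 was at -0.43 and -0.41 and JAL34 at -0.37 and -0.36. Leaf markers summed to 22.4 to 24.97 CPM in BL-treated dwf4 and 15.3 to 17.0 CPM in dwf4, against 5.70 to 9.69 CPM in WT. The root cap pair summed to 21.8 CPM in both libraries of BL-treated dwf4 and 28.7 to 30.9 CPM in dwf4, against 23.6 to 23.9 CPM in WT, and both were called lower for BL in dwf4. The endodermis pair summed to 180 to 182 CPM in BL-treated dwf4 and 164 to 178 CPM in dwf4, against 201 to 209 CPM in WT. This pair split, with 1 called lower at -0.61 and 1 higher at 0.33 in dwf4 against WT. For BL in dwf4, 1 of the pair was called higher at 0.32 and 1 lower at -0.26. The part of these markers in the results was not tested. The 36 bp set lacks mock libraries here, so BL and its handling cannot be told apart, and the comparisons share the dwf4 or the WT libraries. The difference between the BL responses of dwf4 and Col-0, over all 18 libraries, called 0 of the 8 in edgeR. At that same adjusted threshold 0.633% of 20393 genes were called higher and 0.304% lower. DESeq2 also called 0 of the 8. At an unadjusted p under 0.05 in edgeR 1 of the 8 passed, and the share of all genes at that looser threshold is not given here. Its values ran from -0.24 (SE 0.101) for JAL34 to -0.03 (SE 0.13) for BGLU21, and read length coincides with the experiment there.

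Counts as a share of the PYK10 count of the same library need no scaling between libraries, and show that the other loci did not keep a fixed proportion to PYK10. BGLU21 was at 16.2% and 16.6% of the PYK10 count in bri1-116;bzr1-1D and 24.2% and 21.4% in bri1-116, against 9.95% and 10.4% in mock. In hormone-treated roots it was at 8.85% and 5.92% with BL, 3.55% and 3.89% with IAA and 2.90% and 4.04% with both. In the 36 bp set the share was 10.6% and 11.0% in BL-treated dwf4 and 14.9% and 13.5% in dwf4, against 8.01% and 7.61% in WT. The highest share, in bri1-116, and the lowest, with both hormones, lay on opposite sides of mock without overlap. For BGLU22 the share was 16.8% and 16.1% in bri1-116 and 2.15% and 2.35% with IAA, against 6.28% and 7.17% in mock. JAL34 was at 31.2% and 30.4% in bri1-116 and 11.9% and 11.6% with IAA, against 19.7% and 21.8% in mock. NAI1 stood at 1.21% and 1.26% in bri1-116 and 0.733% and 0.682% with IAA, against 0.797% and 0.819% in mock. A ratio within a library shows an unequal difference, not that PYK10 did not differ.

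**Figure D3:**
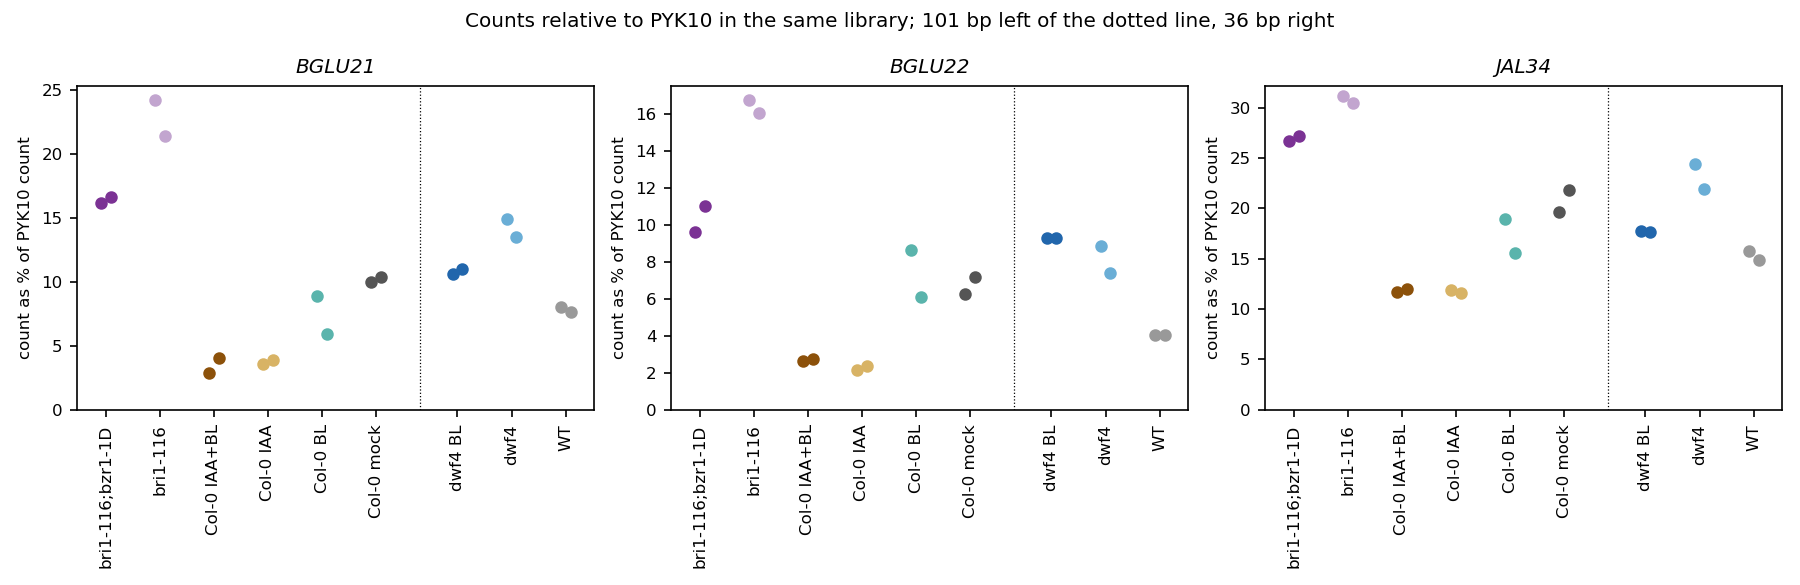
Counts of BGLU21, BGLU22 and JAL34 as a percentage of the PYK10 count in the same library (y axis, from 0; 2 points per group), with groups of 101 bp left of the dotted line and of 36 bp right of it. BGLU21 reaches 24.2% in a bri1-116 library and is at 4.04% or less in all 4 libraries with IAA, against 9.95% and 10.4% in mock.

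Across the 12 libraries of 101 bp, Pearson's r of log2(CPM + 1) between pairs of the 8 loci ran from 0.501 (PYK10 and BGLU22) to 0.989 (BGLU21 and JAL34) over 28 pairs. PYK10 had values of 0.501 to 0.748 with the other 7, and JAL30 was nearest to it. Some pairs without PYK10 lay in this range too, such as BGLU22 and NAI1 at 0.656 and NAI1 and JAL33 at 0.689. By r with PYK10 over these 12 libraries, 15304 genes were ranked. JAL30 had rank 41, NAI2 75, JAL33 114, JAL34 294, NAI1 638, BGLU21 771 and BGLU22 1125. Over the 6 libraries of 36 bp the r of PYK10 ran from -0.677 with BGLU22 to 0.921 with JAL30. BGLU21 and BGLU22 had an r of 0.971 at 101 bp and 0.528 over the 6 libraries of 36 bp. The non-member genes most like PYK10 over these 12 libraries were PME1 (AT4G12390, a pectin methylesterase inhibitor) with an r of 0.880, COL5 (AT5G57660, a CONSTANS-like protein) with 0.847, AT2G43200 with 0.841, CAX3 (AT3G51860, a vacuolar cation/proton exchanger) with 0.838 and the transcription factor gene WRKY45 (AT3G01970) with 0.821. They were the highest 5 of the 15304 genes ranked. Over the 6 libraries of 36 bp their r with PYK10 was 0.527, -0.403, 0.752, 0.206 and 0.054 in the same order. The points share 6 or 3 groups and their libraries, so these are descriptions.

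Of 41 other genes of the ER body and PYK10 system, in 9 lists drawn up from known roles with these data known, 35 passed the filter. The counts below stand beside shares over all genes of 16.7% higher and 19.4% lower in bri1-116 against mock, 21.2% and 19.1% in the double mutant against bri1-116, 29.9% and 29.3% with IAA and 4.79% and 7.93% in dwf4 against WT, and nothing is read from them against these. PYK10-subfamily β-glucosidases BGLU18, BGLU24 and BGLU25 all rose in bri1-116 against mock, 3 of 3 tested. BGLU24 had 19.9 and 14.2 CPM in bri1-116, against 0.463 and 0.679 CPM in mock, which gave 4.86 (SE 0.53, adjusted p = 6.85e-08) on the log2 scale in edgeR's quasi-likelihood test. BGLU18, the main β-glucosidase of wound-induced leaf ER bodies, had 4.58 and 6.61 CPM in bri1-116, against 0.548 and 0.340 CPM in mock, which gave 3.68 (SE 0.48, adjusted p = 1.63e-06) on the log2 scale in the same edgeR test. In the double mutant against bri1-116 all 3 of these β-glucosidases fell, with log2 fold changes of -4.06 for BGLU18 and -3.22 for BGLU24. Leaf markers were higher in bri1-116 and highest in the double mutant, as given above, and their part in these differences was not tested. In dwf4, BGLU24 had 10.4 and 5.94 CPM, against 1.12 and 1.17 CPM in WT. It was the only 1 of these 3 β-glucosidases called there, at 2.83 (SE 0.47, adjusted p = 0.00396) in edgeR. At 36 bases, 72 stretches of PYK10, 67 of BGLU22 and 31 of BGLU21 matched BGLU24 with at most 2 mismatches. The part of such reads in the BGLU24 level was not tested.

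The ER body membrane and NAI2-related genes MEB1, MEB2 and TSA1 were called higher in 2 of 3 cases in bri1-116. TSA1, the homologue of NAI2, had 12.9 and 17.7 CPM in bri1-116, against 3.75 and 3.40 CPM in mock, at 2.10 (SE 0.25, adjusted p = 3.03e-06) in edgeR's test. MEB1 was at 0.46 (SE 0.060, adjusted p = 1.56e-05) in the same edgeR contrast, and it fell with BL, at -0.37 (SE 0.063, adjusted p = 0.00103) in edgeR, as did MEB2, at -0.38 (SE 0.083, adjusted p = 0.00665) in edgeR. All 3 fell in the double mutant against bri1-116, and in dwf4 TSA1 was the 1 of 3 called, at 1.00 (SE 0.23, adjusted p = 0.0247) in edgeR. GDSL lipase-like proteins of the PYK10 complex showed 3 of 3 higher in bri1-116 (GLL22, GLL23 and MVP1), 3 of 3 lower in the double mutant against bri1-116 and 3 of 3 lower with IAA. GLL23 had 20.3 and 26.0 CPM with IAA and 198 and 206 CPM in bri1-116, against 84.4 and 92.0 CPM in mock. Of the NAI1-related bHLH genes AT2G22750, AT2G22760 and AT4G37850, 2 were called higher in bri1-116, and AT4G37850 was at 1.20 (SE 0.15, adjusted p = 6.40e-06) in edgeR.

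Myrosinases cleave glucosinolates, as PYK10 can, and TGG4, TGG5 and PEN2 all fell in bri1-116 against mock, 3 of 3 tested. TGG4 had 63.6 and 73.8 CPM in bri1-116, against 215 and 196 CPM in mock, at -1.58 (SE 0.11, adjusted p = 3.02e-08) in edgeR, and TGG5 was at -1.62 (SE 0.11, adjusted p = 1.86e-08) in edgeR. Both rose in the double mutant against bri1-116, and both fell in dwf4 against WT, TGG5 at -0.95 (SE 0.067, adjusted p = 0.000161) in edgeR. Genes of indole glucosinolate synthesis, which make a substrate of PYK10, fell in 6 of 7 cases with IAA and rose in 6 of 7 in bri1-116. CYP79B3 had 20.6 and 23.6 CPM with IAA, against 173 and 183 CPM in mock, at -3.03 (SE 0.099, adjusted p = 1.99e-13) in edgeR; the exception with IAA was the transcription factor MYB51, which rose by 0.63 (adjusted p = 7.95e-05 in edgeR). General ER folding genes (BIP1, BIP2, BIP3, CNX1, CRT1 and PDIL1-1) fell in 5 of 6 cases with IAA, rose in 5 of 6 in bri1-116 and fell in 5 of 6 in the double mutant against bri1-116, and the called ones differed by at most 0.60 on the log2 scale. Among the other lectins, JAL31 and JAL35 included, 1 of 3 rose in bri1-116 and 2 of 3 fell with IAA. Of 4 nitrile specifiers tested, 2 rose in bri1-116, and with IAA 3 fell and 1 rose.

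**Figure D4:**
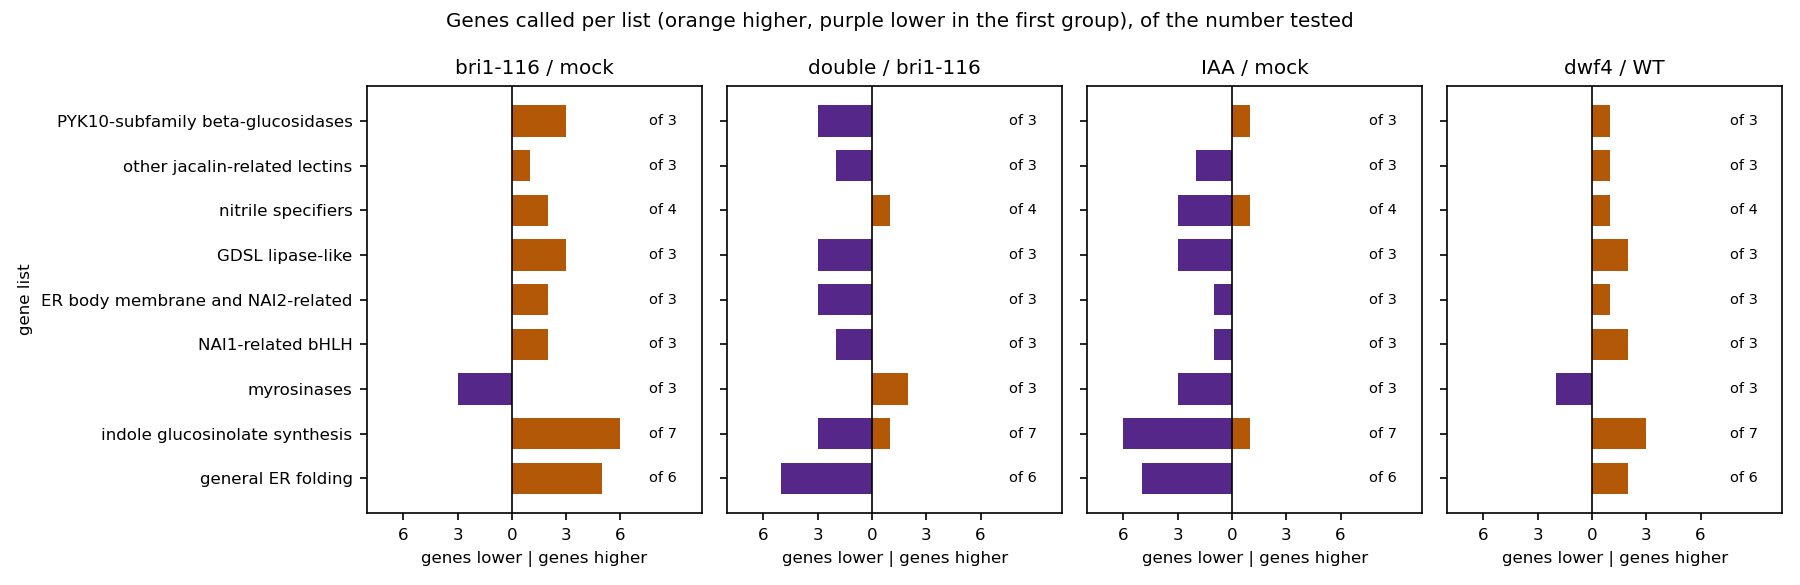
Number of genes called higher (orange, right) and lower (purple, left) in 9 lists of related genes, of the number tested, in 4 comparisons ("double" is bri1-116;bzr1-1D, and mock is mock-treated Col-0). Myrosinases are the only list with calls on the lower side alone in bri1-116, and indole glucosinolate genes have 6 of 7 higher there and 6 of 7 lower with IAA.

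Over all 9 lists, the counts of the 35 tested genes called higher and lower were 0 and 6 with BL, 3 and 24 with IAA, 0 and 23 with both hormones, 24 and 3 in bri1-116 and 9 and 3 in the double mutant, each against mock. Over all genes the shares called higher and lower were 6.37% and 6.59% with BL, 29.9% and 29.3% with IAA, 26% and 26.1% with both hormones, 16.7% and 19.4% in bri1-116 and 8.03% and 8.17% in the double mutant. The list counts were 4 and 21 for the double mutant against bri1-116 and 4 and 6 for both hormones against IAA, beside 21.2% and 19.1%, and 5.4% and 5.13%, of all genes. At 36 bp they were 13 and 2 in dwf4 against WT, 2 and 12 for BL in dwf4 and 12 and 8 for BL-treated dwf4 against WT, beside 4.79% and 7.93%, 7.86% and 5.45%, and 9.63% and 9.16% of all genes in the same order. The interaction called 2 higher and 1 lower, beside 0.606% and 0.838% of all genes. Leaving out 1 library moved some of these counts by over 1.5 times. The count was 3 in place of 6 with BL without the second mock library, 5 in place of 10 for both hormones against IAA without the second IAA library, and 1 in place of 3 for the interaction without either IAA library or the first library of both hormones. For the double mutant against mock it was 6 in place of 12 without the second mock library and 5 without the second library of the double mutant. At 36 bp it was 7 in place of 14 for BL in dwf4 without the second BL-treated library. Without the first and the second WT library in turn, it was 4 and 5 in place of 15 for dwf4 against WT, and 5 and 3 in place of 20 for BL-treated dwf4 against WT.

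The lectin genes lie between nitrile specifier genes, whose products steer glucosinolate breakdown towards nitriles, and the lectin gene JAL35 on chromosome 3. With IAA, NSP3, NSP1 and NSP4 fell, with log2 fold changes of -1.58, -1.02 and -1.64, as did JAL35 at -1.70, while JAL31, between JAL30 and JAL33, was at -0.35; all 5 were called by edgeR. In bri1-116 against mock the 8 genes of the cluster examined here were all on the higher side. NSP3 and NSP4 rose, at 0.28 and 0.48, as did JAL31 at 0.35, while NSP1 and JAL35 were not called, at 0.08 and 0.26. Other loci of the cluster, among them that of JAL32 between JAL31 and JAL33, were not examined. In the double mutant against bri1-116, NSP3 rose by 1.00 (adjusted p = 1.79e-07 in edgeR), where JAL30, JAL31, JAL33 and JAL34 were all called lower. In that contrast the genes of the cluster did not all differ in the same direction.

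**Figure D5:**
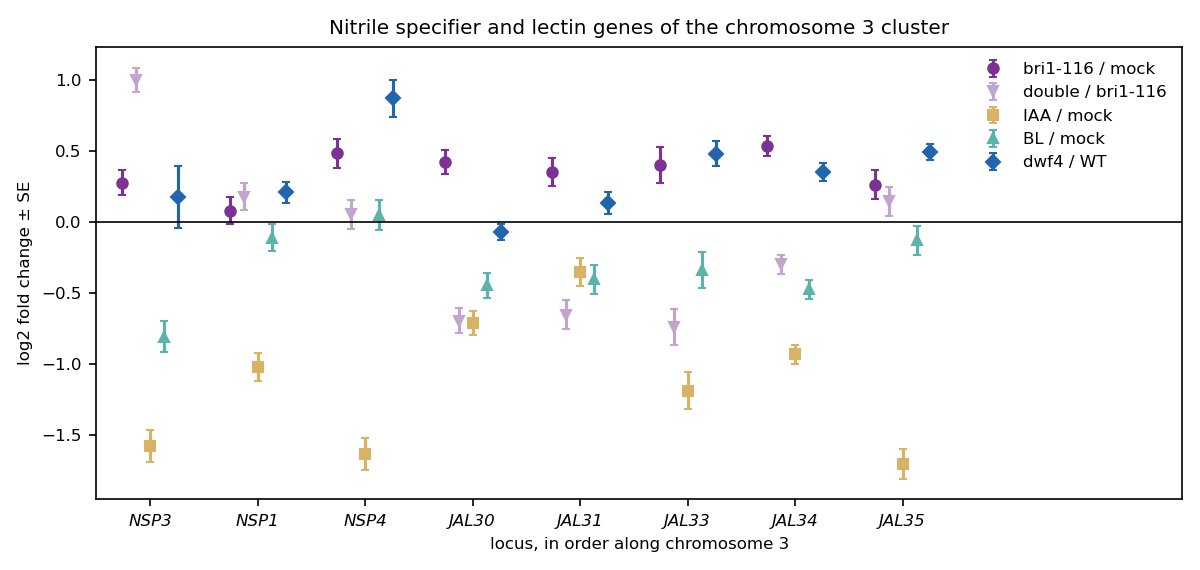
log2 fold change with its SE (y axis) for 8 nitrile specifier and lectin genes in their order along chromosome 3 (x axis), in 5 comparisons marked by symbol and colour ("double" is bri1-116;bzr1-1D). IAA values are below 0 for all 8 shown. In the double mutant against bri1-116 NSP3 is at 1.00, while JAL30, JAL31, JAL33 and JAL34 lie between -0.74 and -0.30.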

How the data were processed

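RNA-seq of root tip sections was deposited as 18 tables of raw whole-number read counts per locus, 1 per library. The authors' counts come, per the submitters' processing notes, from TopHat 1.4.0, Bowtie and HTSeq with TAIR10; which annotation release, strand setting or filters were used is not given in the sources used here. The tables hold no coordinates. The 5 closing lines for reads in no gene were left out; reads with more than 1 alignment made up 3.05% to 9.35% of each table's total.

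The 8 loci, the related gene lists and the comparisons were chosen with earlier results of these data known. edgeR 4.0.16 in R 4.3.3 (limma 3.58.1) was fitted over all genes with TMM factors, filterByExpr (minimum count 10, total 15), a coefficient for each group and the quasi-likelihood test; p-values were adjusted by Benjamini-Hochberg and called at 0.05. The 12 libraries of 101 bp, the 6 of 36 bp and, for the difference of BL responses, all 18 were fitted apart. The fits were tested on simulated counts with known changes, in 5 draws: directions were recovered nearly always, but the share of false calls was above the nominal rate in every draw for dwf4 against WT and in some draws for the other contrasts simulated. SE come from the fitted model and fold changes are log2. Named are all 8 loci, for each related list its counts and up to 4 called genes with the largest change and a mean of at least 1 CPM, and the 5 genes most like PYK10 by Pearson's r among those with a mean of at least 5 CPM in both read lengths. Values of NSP1, NSP3, NSP4, JAL31 and JAL35 are also given where they were not called, to complete their cluster, a choice made after they were seen. JAL32 was dropped because the annotation gives its locus another symbol.

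Gene models, lengths and sequences are from RefSeq TAIR10.1; all 8 loci matched. Stretches of transcripts were matched to 1 transcript of every locus with bwa 0.7.19-r1273 at up to 2 mismatches. Sequences were handled with Biopython 1.88 and plotted with matplotlib 3.10.9. Alternatives were RLE size factors, library totals, no filter, DESeq2 1.42.0, a replicate block, other sets of libraries and leaving out each library.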

Additional observations from a re-analysis of the deposited data

Results flagged for a closer look

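The term for a different response to BL in roots with and without IAA (the interaction in edgeR's quasi-likelihood fit) was called for 1 of the 8 loci and 3 of the 35 related genes tested. Over all 20644 genes tested, 0.606% were called higher and 0.838% lower. For NAI1, given as a description because it was chosen with these data in view, the interaction was 0.46 on the log2 scale, with -0.15 for BL with IAA and -0.61 without. It was called in 6 of 15 alternatives, and in none of the 8 fits that left out 1 library or the fit of all 18. GLL23, a GDSL lipase-like protein of the PYK10 complex, had an interaction of 1.04 (adjusted p = 0.00286 in edgeR): it had 48.9 and 52.4 CPM with both hormones and 20.3 and 26.0 CPM with IAA, and 109 and 79.7 CPM with BL and 84.4 and 92.0 CPM in mock. The GLL23 interaction was called in all 15 alternatives. MEB1, an ER body membrane protein, had an interaction of 0.41 (adjusted p = 0.0271 in edgeR; called in 8 of 15 alternatives), with 0.04 for BL with IAA and -0.37 without. NSP5, a nitrile specifier, had -0.44 (adjusted p = 0.0255 in edgeR; called in 8 of 15 alternatives), with -0.42 for BL with IAA and 0.02 without.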

How the results depend on the processing

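No called log2 fold change of the 8 loci changed sign under the alternatives run; 1065 refits kept their call status, 57 lost it and 18 gained it. The number of the 8 loci called for both hormones against IAA was 3, 5 with no filter on low counts and 0 to 3 without 1 library. For the interaction it was 1, 2 with no filter, 0 with all 18 libraries in the fit and 0 to 0 without 1 library. Without 1 library it was 1 to 3 in place of 5 for the double mutant against mock, 2 to 6 in place of 6 for dwf4 against WT and 3 to 6 in place of 5 for BL-treated dwf4 against WT. With a replicate block the counts were 5, 7, 8, 3 and 1 for BL, IAA, both hormones, both against IAA and the interaction. Of 20644 genes, 2476, 11960, 10429, 1951 and 267 were called there. For the contrasts of bri1-116 and the double mutant they were 7, 7 and 5, beside 7163, 8100 and 3099 genes. At 36 bp they were 5, 7 and 5, beside 2095, 2151 and 3158 of 19558 genes, and the 5 for dwf4 against WT leaves out PYK10. With no filter 2907 and 860 genes were called for both against IAA and the interaction, and with all 18 libraries 185 for the interaction. Without 1 library, fewer genes were called over all in every contrast above but the interaction and BL in dwf4. The labels do not say whether same-numbered libraries share more than a number. Their deviations from the group means had r of -0.175 to 0.166 at 101 bp and -0.176 to 0.029 at 36 bp. These values cannot show whether some groups shared a batch. Counts of all genes called moved by over 1.5 times under some setting: to 1150 at the lowest for BL from 2675, 1099 from 2174 (both against IAA), 136 to 860 from 298 (interaction), 1609 from 3343 (double mutant against mock), 575 to 3781 from 2487 (dwf4 against WT), 1323 to 3989 from 2602 (BL in dwf4), 1034 from 3674 (BL-treated dwf4 against WT) and 70 to 842 from 191 (difference of BL responses). With library totals in place of TMM, 69.0% against 51.3% of calls were higher for both hormones against IAA, 58.8% against 41.9% for the interaction and 52.2% against 37.7% for dwf4 against WT. Summing BGLU21 with BGLU22 gave no call where BGLU21 had one for both hormones against IAA, and none where BGLU22 had one for BL-treated dwf4 against WT (0.19); this alternative was chosen after seeing the data. The cause of these shifts was not tested. With 2 libraries per group, each estimate of spread rests on few libraries.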
